A study of Homo sapiens with 32 samples.

Results

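The peaks of N6-methyladenosine (m6A) described here lie in the 8 genes of the human m6A writer complex, METTL3, METTL14, WTAP, VIRMA, ZC3H13, RBM15, RBM15B and CBLL1. Members were chosen by position: every line of the 3 deposited peak lists that overlapped the hg19 interval of one of these genes was taken. This gave 201 of 424904 peaks, which formed 53 of 174376 sites once overlapping peaks of all libraries were joined. The cells were PANC-1, an established line from a human pancreatic ductal adenocarcinoma. Fragmented total RNA was enriched with an antibody to m6A, and sequenced next to unselected input, in 3 groups: control, knockout of CFL1 (cofilin 1, which severs actin filaments) and knockout of METTL3. Each group is represented by 2 peak sets, called libraries here and named by the number in their peak names: control 1 and 2, CFL1 knockout 3 and 5, METTL3 knockout 3 and 5. No treatment is given for these groups. The sources used here do not state how the knockouts were made or whether each was 1 clone. The peak names of the knockout libraries carry the letters si, while the labels say knockout. Peak lists hold no expression levels, so the cell type and the loss of CFL1 or METTL3 could not be checked in them.

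The writer complex places a methyl group on adenosines of nascent RNA, mostly within a short sequence around the bases GGAC. METTL3 is the catalytic subunit, METTL14 is the partner that holds the RNA, and WTAP brings the pair to nuclear speckles. VIRMA, ZC3H13, CBLL1 (also known as HAKAI) and the RNA-binding proteins RBM15 and RBM15B make up the regulatory part, which steers the complex to its targets. In messenger RNA, m6A is known to gather in long internal exons and around stop codons. The transcripts of the writers are RNAs like any other and can carry the mark themselves.

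Peaks of the METTL3 knockout libraries reached the 5′ end of the interval of RBM15, RBM15B and CBLL1. Peaks also came close to that of METTL3, and the sequences around these 4 starts are shown for that reason. Each runs from 50 bases before to 50 bases from the transcript start in RefSeq (GRCh38.p14), with GGAC in capitals.
METTL3: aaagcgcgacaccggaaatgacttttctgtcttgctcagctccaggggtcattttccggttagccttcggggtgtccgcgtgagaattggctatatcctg
RBM15: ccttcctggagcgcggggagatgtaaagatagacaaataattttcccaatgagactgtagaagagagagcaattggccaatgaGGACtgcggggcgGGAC
RBM15B: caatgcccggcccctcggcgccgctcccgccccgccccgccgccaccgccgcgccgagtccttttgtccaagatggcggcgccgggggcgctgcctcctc
CBLL1: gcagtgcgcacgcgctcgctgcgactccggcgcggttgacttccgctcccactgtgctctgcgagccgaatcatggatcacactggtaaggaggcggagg
RBM15 holds GGAC at 2 places in this window and the 3 others hold none on this strand. On the opposite strand, read as GTCC, RBM15B holds 2 matches and METTL3 holds 1. Over the 35116 RefSeq starts of the table, 32.6% of windows of 100 bases hold GGAC and 31.0% hold GTCC. The peaks are on hg19, another build, so no position was carried over to the peaks. At METTL3 a narrow site spanned 21979039 to 21979510 on chromosome 14 (hg19), just inside the end of the interval at 21979517. At RBM15 the peaks of METTL3 knockout 3 and 5 began at 110881809 and 110881812 on chromosome 1, before the start of the interval, and those of the other 4 libraries began after it. The same split held at RBM15B, where METTL3 knockout 3 and 5 began at 51428695 and 51428641 on chromosome 3. It held at CBLL1 too, where they began at 107384269 and 107384267 on chromosome 7 and control 2 began at 107384295, just inside the interval.

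All 8 genes carried peaks in all 6 libraries, so none of them lost its m6A peaks altogether in either knockout. Together they held 38 and 40 peaks in control 1 and 2, 29 and 28 in CFL1 knockout 3 and 5, with 32 and 34 in METTL3 knockout 3 and 5. Every knockout library lay below the control libraries. The means were 39.0 ± 1.41 (SD, n = 2) in control, 28.5 ± 0.707 after CFL1 knockout and 33.0 ± 1.41 after METTL3 knockout, or 0.731 and 0.846 of control. An exact two-sided permutation of 2 against 2 libraries gave p = 0.333 for each knockout, which is the smallest it can give. Over the whole lists the ratios were 0.885 and 0.820. Per 100000 listed peaks the writers held 49.0 and 50.3 in control, 39.9 and 42.2 after CFL1 knockout, and 50.1 and 52.3 after METTL3 knockout, where METTL3 knockout 3 lies between the control libraries. The −log10 q is the authors' measure of how sure a peak is, and restricted to values of at least 10 the ratio for METTL3 was 1.12, the other direction. Read depth is unknown from peak lists, and input RNA levels were not examined here, so an absent peak does not show that methylation was lost. The running numbers in the peak names skip 22.5% and 28.6% of values in control 1 and 2 but 41.8% to 50.2% in the knockout libraries, by a criterion the sources used here do not state, and the part of this in absent peaks was not tested. Whether both libraries of a group are separate cultures is not stated either, so their spread may be technical.

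**Figure D1:**
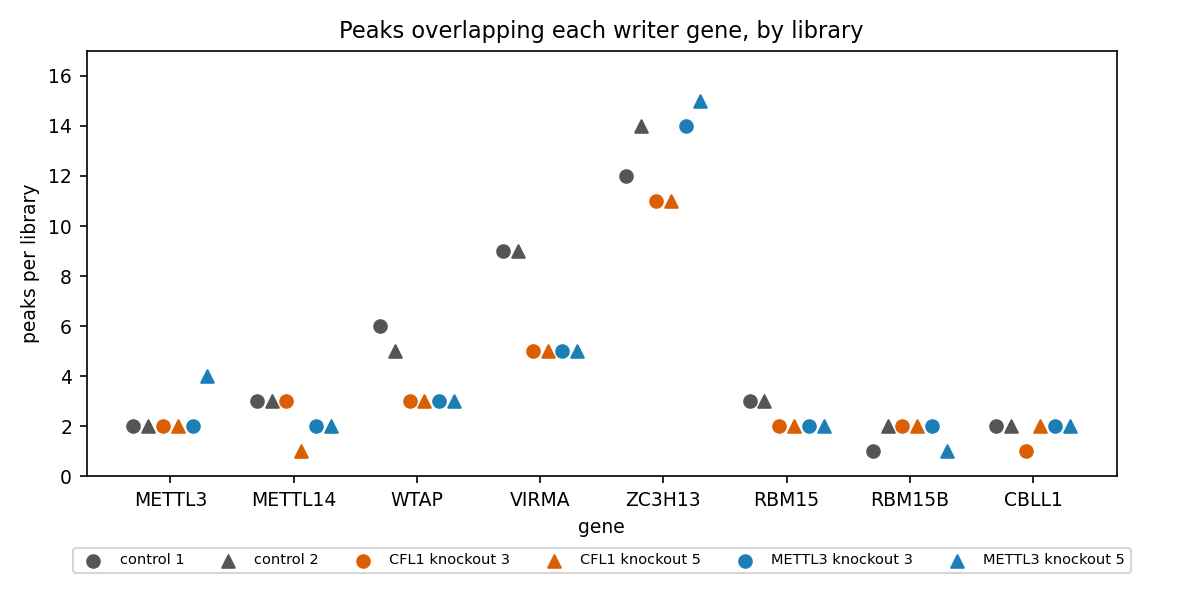
Peaks overlapping each writer gene (vertical axis, number of peaks) in each of the 6 libraries. VIRMA stands at 9 in both control libraries and at 5 in all 4 knockout libraries, and WTAP at 6 and 5 against 3.

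Gene by gene, WTAP, VIRMA and RBM15 had counts below both controls in both knockouts, as did ZC3H13 in the CFL1 knockout and METTL14 in the METTL3 knockout. The mean of METTL14 was also lower after CFL1 knockout, 2.0 against 3.0, and that of CBLL1 was 1.5 against 2.0, with overlapping libraries. In CFL1 knockout 3, 2 of the 3 peaks of METTL14 belonged to 1 site. Both libraries of the CFL1 knockout lay below both control libraries in 4 of the 8 genes and above them in none. The METTL3 knockout gave the same numbers, 4 and none. Over all 25 kb tiles of the genome that hold a peak, counts were lower in this sense in 20.1% for the CFL1 knockout and in 20.8% for the METTL3 knockout, and higher in 16.7% and 16.6%. Tiles with at least 10 peaks over the 6 libraries, the fewest that any writer gene had, gave 31.3% and 33.6% lower and 24.4% and 20.4% higher. The exact interval for 4 of 8 genes runs from 15.7% to 84.3%, which includes these shares for lower counts. The gene intervals run from 6638 bp for RBM15B to 98297 bp for ZC3H13, so tiles of 25 kb are not matched to them in length. VIRMA and RBM15 were lower in both knockouts also where −log10 q was at least 5 or at least 10, and WTAP was not. At both of these thresholds ZC3H13 was higher after METTL3 knockout, and at the threshold of 10 RBM15B was higher after CFL1 knockout. Both CFL1 knockout libraries called RBM15B site 1 as 2 peaks and both controls as 1, so the higher count adds no site. Fold at that site was lower after CFL1 knockout than in control. RBM15 was no longer lower in either knockout when peaks were given to genes by their summit. Restricted to a fold of at least 4, RBM15 alone was lower after CFL1 knockout and none was higher, while after METTL3 knockout METTL14 was lower and METTL3 and ZC3H13 were higher. With counts scaled by the peaks of the library, ZC3H13 was no longer lower after CFL1 knockout, where METTL3 and RBM15B were higher. METTL3, ZC3H13 and CBLL1 were then higher after METTL3 knockout. Unscaled, METTL3 had 2 peaks in every control and CFL1 knockout library, and CBLL1 had 2 in every control and METTL3 knockout library. Scaling alone sets such equal counts apart, as the knockout lists are shorter. Shares over tiles were not worked out with these thresholds, the assignment by summit or scaled counts. The hg19 intervals on the plus strand are chr4:119606500-119636500 for METTL14, chr6:160148604-160177351 for WTAP, chr1:110881945-110889303 for RBM15, chr3:51428699-51435336 for RBM15B and chr7:107384279-107402083 for CBLL1. Those on the minus strand are chr14:21966282-21979517 for METTL3, chr8:95499921-95565757 for VIRMA and chr13:46528600-46626896 for ZC3H13.

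A larger share of the writers' sites than of all sites was called in every library. Of their 53 sites, 19 were called in all 6 libraries, or 35.8% (exact interval 23.1% to 50.2%), against 10.8% of all sites. A single library called 12 (22.6%), against 48.3%. None was called in both CFL1 knockout libraries only or in both METTL3 knockout libraries only, which allows up to 6.72% by the exact interval, against 2.93% and 2.65% of all sites. The 19 shared sites were strong, with a median highest −log10 q of 197, and wide, with a median of 900 bp. Over all 18877 shared sites the median highest −log10 q was 100.7. There the widest among the libraries' strongest peaks had a median of 983 bp, a measure other than the width of a joined site. The widths of the writers' shared sites and of all shared sites were thus not compared by the same measure. Of the 46 sites found in control, 21 had no CFL1 knockout peak (45.7%, 30.9% to 61.0%), against 64.9% of all control sites. There were 17 with no METTL3 knockout peak (37.0%, 23.2% to 52.5%), against 65.0%. Of the sites found in a knockout, 5 of 30 for the CFL1 knockout (16.7%, 5.64% to 34.7%) and 5 of 34 for the METTL3 knockout (14.7%, 4.95% to 31.1%) had no control peak. The shares over all sites were 62.0% and 57.2%. With peaks of −log10 q of at least 10 alone, the writers' shares were 26.9% and 27.6%, and with sites counted only where both libraries of a group called them they were 8.33% and 6.67%. Without control 2 the METTL3 knockout share was 28.6%, and without METTL3 knockout 5 it was 6.67%, while the CFL1 knockout share was 11.1% without CFL1 knockout 3. Under these alternatives the shares over all sites were not worked out, and 62.0% and 57.2% are not their background. Peak strength moves with these shares, and its part in them was measured only by a threshold. Among control sites with a −log10 q of at least 10, 28.6% of the writers' 28 sites had no CFL1 knockout peak and 21.4% no METTL3 knockout peak. The shares over all such sites were 40.7% and 39.6%, inside the exact intervals of 13.2% to 48.7% and 8.30% to 41.0%. Intervals cover counting error only, and sites of 1 gene are not independent of each other.

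**Figure D2:**
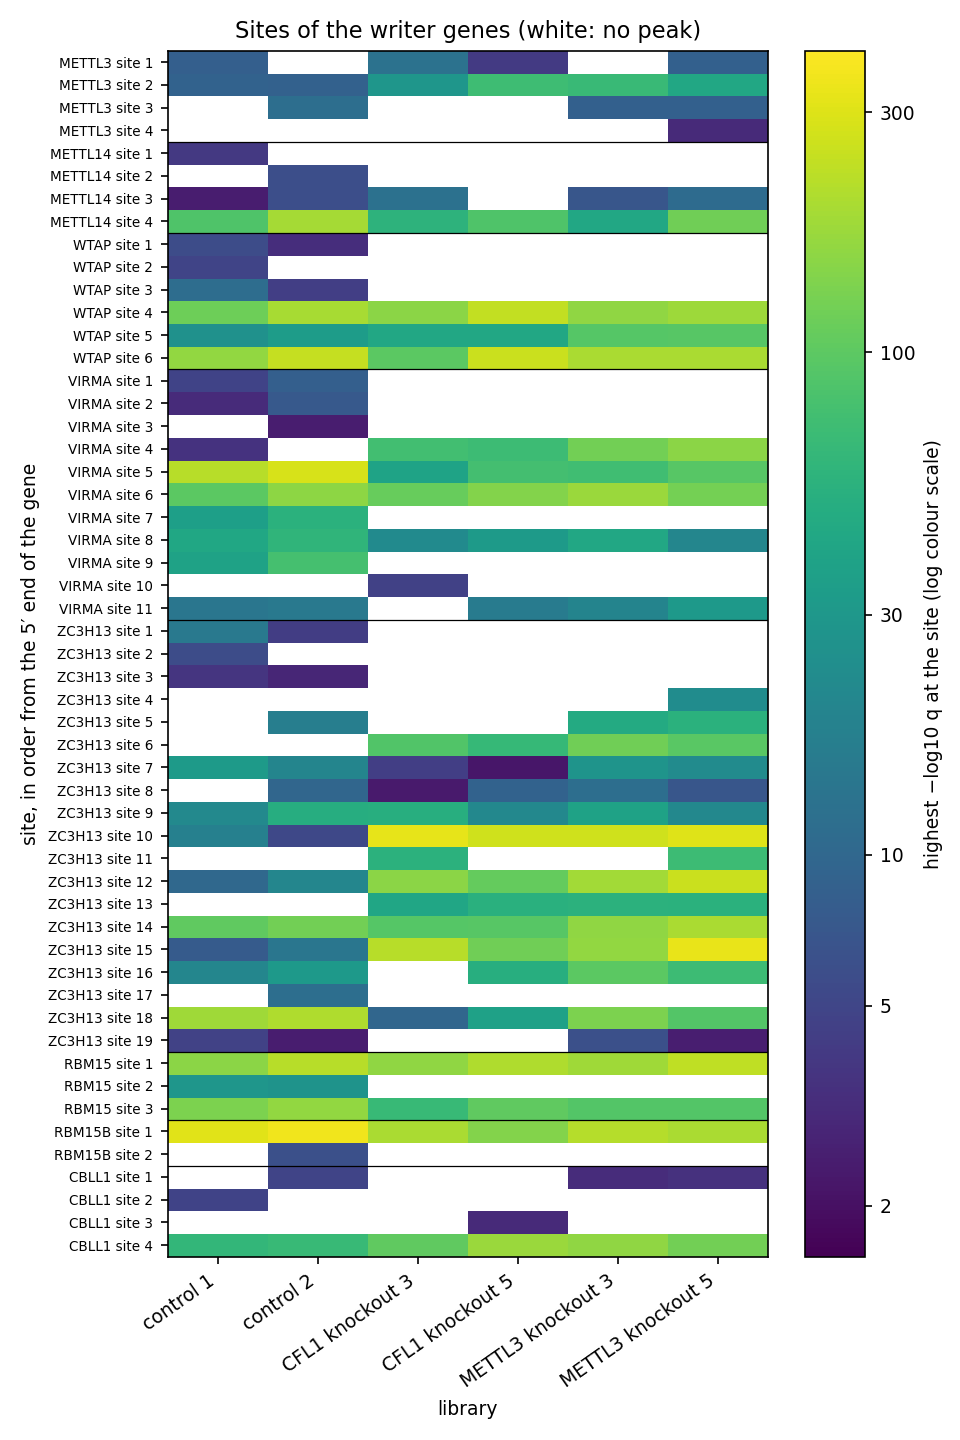
Highest −log10 q (colour, log scale) of each of the 53 sites (rows, numbered from the 5′ end of each gene) in each library (columns), white where no peak was called. The 9 sites with colour in both control columns alone lie in WTAP, VIRMA, ZC3H13 and RBM15, and sites 10, 12 and 15 of ZC3H13 are brighter in all 4 knockout columns.

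METTL3, the catalytic subunit and the target of 1 of the knockouts, had 2 peaks in each library except METTL3 knockout 5, which had 4. Its gene lies at 21966282 to 21979517 on chromosome 14, on the minus strand. The site called in all 6 libraries, site 2, spans 21971333 to 21971701. Its fold enrichment, the height of a peak over local background as the authors' peak caller gave it, was 2.05 and 1.94 in control 1 and 2 and 2.97 and 4.81 in CFL1 knockout 3 and 5. In METTL3 knockout 3 and 5 it was 7.46 and 6.405, the highest of the 6. The −log10 q at this site was 8.92 and 8.87 in control, 29.1 and 71.2 after CFL1 knockout, and 66.4 and 43.1 after METTL3 knockout. Neither knockout overlapped control in either value, so the METTL3 gene held a stronger peak call in the cells labelled as METTL3 knockout than in control. Libraries were called separately and fold is each peak's own value, so this is a description of the calls and not a measured change in methylation. At the 5′ end, site 1 was called in control 1 (fold 3.17), in both CFL1 knockout libraries (2.81 and 1.72) and in METTL3 knockout 5 (4.01). Site 3, at 21969977 to 21970236, was called in control 2 and in both METTL3 knockout libraries with folds of 3.09, 2.85 and 2.96, and in no CFL1 knockout library. Site 4 was a single call of METTL3 knockout 5.

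METTL14, the RNA-binding partner of METTL3, had 3 peaks in each control library, 3 and 1 in CFL1 knockout 3 and 5, and 2 in each METTL3 knockout library. Its strongest site, site 4, spans 119630981 to 119632376 on chromosome 4, at 83.9% of the interval from the 5′ end. Fold there was 10.98 and 19.4 in control 1 and 2, 5.67 and 7.69 after CFL1 knockout, and 3.94 and 9.26 after METTL3 knockout. All 4 knockout libraries thus lay below both controls, while −log10 q overlapped, with 86.9 and 188 in control against 43.3 to 121 in the knockouts. In CFL1 knockout 3 the site broke into 2 peaks, the stronger one 392 bp wide, where control 1 had a single peak of 1347 bp. Site 3, at 119626607 to 119627175, was called in all libraries but CFL1 knockout 5. Sites 1 and 2 were single calls of control 1 and control 2, with −log10 q of 3.98 and 5.998.

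WTAP, the adaptor that targets the catalytic pair to nuclear speckles, had 6 and 5 peaks in control 1 and 2 and 3 in every knockout library. The 3 that were kept are its strongest, in the last part of the gene. Site 4, at 160169074 to 160170156 on chromosome 6, had folds of 4.04 and 4.61 in control, 7.15 and 9.46 after CFL1 knockout, and 5.63 and 7.82 after METTL3 knockout. Site 5, at 160174318 to 160174612, had 4.04 and 4.07 in control, 6.404 and 4.87 after CFL1 knockout, and 6.60 and 7.86 after METTL3 knockout. At both sites every knockout library stood above both controls. Site 6, at 160175935 to 160176834, held the highest −log10 q of the gene, 254 in CFL1 knockout 5, but 99.5 in CFL1 knockout 3, with 161 and 245 in control. The sites without a knockout peak were weak. Site 1, at 160153649 to 160153891, had −log10 q of 5.77 and 3.28 in control 1 and 2, and site 3, at 160161675 to 160161978, had 11.5 and 4.40. Site 2 was called in control 1 alone. The middles of all 3 lie in the first 46.0% of the interval.

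VIRMA, the scaffold of the regulatory part, had 9 peaks in each control library and 5 in each of the 4 knockout libraries. The difference from control, −4.0 peaks in each knockout, was smaller with scaled counts and with thresholds on −log10 q or fold. For the METTL3 knockout it was −2.62 with counts scaled by the peaks of the library and −1.0 with −log10 q of at least 10. Of its 11 sites, 4 were called in both control libraries and in no knockout library. Over all sites 13.3% had this pattern, and over the writers 9 of 53 (17%, exact interval 8.07% to 29.8%). Among those of VIRMA were strong calls. Site 9, at 95522761 to 95523042 on chromosome 8, had −log10 q of 38.1 and 78.2 and folds of 5.78 and 7.12 in control 1 and 2. Site 7, at 95530128 to 95530364, had −log10 q of 36.2 and 53.6 and folds of 4.48 and 5.06. Both are narrow, 282 and 237 bp, and each lies next to a site that all 6 libraries called, site 8 and site 6. Site 1, at 95562077 to 95562381, and site 2, at 95558366 to 95559394, were weaker, with −log10 q of at most 8.51, and lie in the first 10.4% of the interval from the 5′ end.

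The shared sites of VIRMA differed in direction. Site 5, at 95538566 to 95539786, was its strongest, with −log10 q of 219 and 288 in control 1 and 2 against 39.1 and 76.9 in the CFL1 knockout and 72.8 and 94.6 after METTL3 knockout. Fold there was 7.26 and 7.22 in control and 4.18 to 6.02 in the knockouts, so both values were lower in all 4 knockout libraries. Site 6, at 95531249 to 95531745, went the opposite way in fold, with 3.73 and 4.19 in control, 9.18 and 8.66 after CFL1 knockout, and 7.32 and 6.22 after METTL3 knockout. Its −log10 q overlapped between the groups. Site 4, at 95541351 to 95541628, was barely called in control, with a −log10 q of 3.56 in control 1 and no peak in control 2. It reached 74.0 and 70.6 in the CFL1 knockout and 122 and 151 after METTL3 knockout, yet the folds were only 2.05 in control 1, 2.44 and 2.45 after CFL1 knockout, and 3.04 and 3.63 after METTL3 knockout.

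ZC3H13, a zinc finger protein that helps to keep the complex in the nucleus, held the most sites, 19, in the longest interval, 98297 bp on chromosome 13. It had 12 and 14 peaks in control 1 and 2, 11 in each CFL1 knockout library, with 14 and 15 in METTL3 knockout 3 and 5. Per 10 kb of its interval this came to 1.22 and 1.42 in control, below RBM15 at 4.08 in each control library. Among the writers, ZC3H13 alone had sites that every knockout library called and no control library did, and there were 2. Over all sites 3.63% had this pattern and over the writers 3.77%. Site 6, at 46577298 to 46577602, had folds of 7.96 and 5.35 in CFL1 knockout 3 and 5, then of 6.08 and 7.16 in METTL3 knockout 3 and 5. Site 13, at 46544511 to 46544792, had 5.10 and 5.19 in the CFL1 knockout and 5.38 and 6.36 after METTL3 knockout. The reverse pattern was found at the 5′ end, where site 1, at 46622959 to 46623321, and site 3, at 46620565 to 46620767, were called in both controls alone. Their −log10 q was 14.7 and 4.34 at site 1 and 3.71 and 2.89 at site 3.

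At 3 shared sites of ZC3H13 the −log10 q was far higher in all 4 knockout libraries. At site 10, at 46559476 to 46560078, it was 17.7 and 5.24 in control 1 and 2, 322 and 269 after CFL1 knockout, and 269 and 306 after METTL3 knockout. Fold there was 3.60 and 2.09 in control and 5.07 to 7.14 in the knockouts. At site 15, at 46541682 to 46542228, −log10 q was 7.66 and 14.0 in control, 221 and 121 after CFL1 knockout, and 164 and 335 after METTL3 knockout. These 2 sites had non-overlapping values in both measures. At site 12, at 46549452 to 46550157, the measures parted: −log10 q was 10.3 and 20.1 in control against 107 to 254 in the knockouts, while fold was 3.74 and 6.92 in control, 2.62 and 2.25 after CFL1 knockout, and 3.02 and 3.94 after METTL3 knockout. The number of reads behind each peak is unknown. Site 18, near the 3′ end, went the other way in −log10 q. At site 18, at 46530796 to 46531627, −log10 q was 182 and 208 in control, 9.77 and 37.2 after CFL1 knockout, and 134 and 90.4 after METTL3 knockout. Its fold was 9.96 and 9.30 in control, 2.78 and 4.36 after CFL1 knockout, and 9.40 and 8.02 after METTL3 knockout, where it overlapped control. Other sites near that end differed. Site 16 had −log10 q of 20.2 and 31.4 in control and 98.3 and 70.3 after METTL3 knockout. It had 50.9 in CFL1 knockout 5 and no peak in CFL1 knockout 3. Site 19 had no CFL1 knockout peak, and its −log10 q overlapped between control and METTL3 knockout.

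RBM15 and RBM15B, paralogous RNA-binding proteins that guide the complex to its targets, carried peaks several kilobases wide. In RBM15 site 1 spans 110881809 to 110884971 on chromosome 1, or 3163 bp of a gene interval of 7359 bp. Each library called it as 1 peak, from 2780 bp wide in control 1 to 3160 bp in METTL3 knockout 5. Its fold was 4.07 and 4.55 in control, 4.61 and 4.88 after CFL1 knockout, and 5.39 and 8.27 after METTL3 knockout, so the CFL1 knockout lay only just above control 2. Site 2, at 110886629 to 110887123, was called in both control libraries with −log10 q of 29.1 and 27.2 and in no knockout library, and it is the peak by which the counts of 3 and 2 differ. Site 3, at 110888743 to 110890447, runs past the end of the interval. It was 1 peak of 1629 and 1620 bp in control 1 and 2 and 1670 bp in METTL3 knockout 3, and 2 peaks in the 3 other libraries.

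RBM15B is a gene without introns, and its site 1, at 51428641 to 51432123 on chromosome 3, covers 3483 bp. It held the highest −log10 q of any writer site, with 308 and 350 in control 1 and 2, 196 and 144 after CFL1 knockout, and 217 and 199 after METTL3 knockout. Fold was 11.2 and 9.44 in control, 4.86 and 3.85 after CFL1 knockout, and 5.54 and 5.11 after METTL3 knockout. All 4 knockout libraries lay below both controls in both values. The site was 1 peak in both controls and METTL3 knockout 5, and 2 peaks in the 3 other libraries. Site 2 was a single weak call of control 2.

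CBLL1, a ubiquitin ligase that is part of the complex, had 2 peaks in each library except CFL1 knockout 3, which had 1. Its strong site 4, at 107398467 to 107399849 on chromosome 7, lies at 83.6% of the interval. Fold was 2.88 and 2.79 in control 1 and 2, 7.49 and 9.89 after CFL1 knockout, and 6.81 and 6.79 after METTL3 knockout. The −log10 q was 61.4 and 66.2 in control, 103 and 173 after CFL1 knockout, and 160 and 122 after METTL3 knockout, so the knockouts lay above control in both values. The weak site 1 at the gene's start, at 107384267 to 107384519, was called in control 2 and in both METTL3 knockout libraries, with −log10 q of at most 4.90. CBLL1 site 4 is thus the reverse of RBM15B site 1, which was lower in the knockouts in both values. This holds for these sites and not for the genes, as CBLL1 site 1 had its highest −log10 q in control 2. METTL3 site 2, WTAP site 5 and ZC3H13 sites 10 and 15 were also higher in both values in both knockouts, and VIRMA site 5 was lower.

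**Figure D3:**
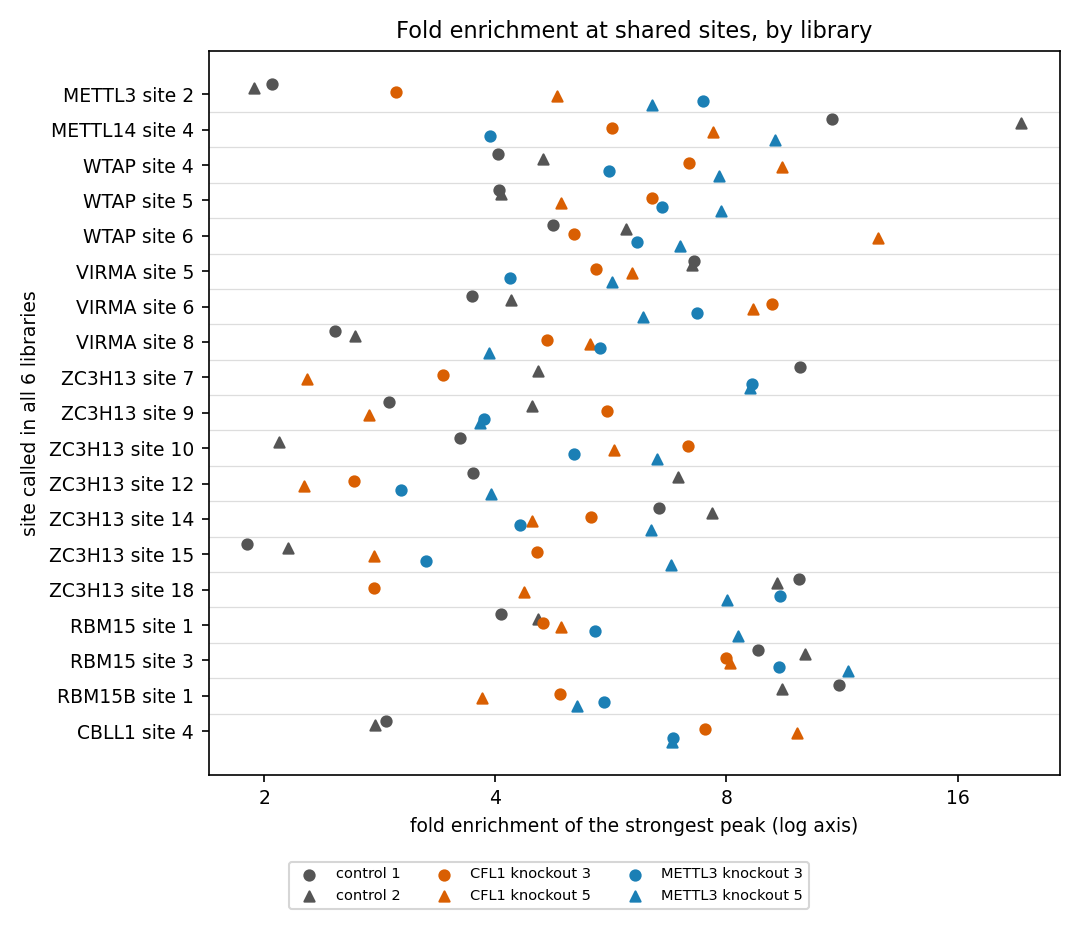
Fold enrichment (horizontal log axis) of the strongest peak of each library at the 19 writer sites called in all 6 libraries (rows). METTL3 site 2 and CBLL1 site 4 have both controls at the left, RBM15B site 1 and METTL14 site 4 have them at the right, and ZC3H13 site 9 has the groups mixed.

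Over the 19 shared sites, fold was higher in both CFL1 knockout libraries than in both controls at 9 and lower at 8. The METTL3 knockout had 10 higher and 4 lower. Of all 18877 sites called in the 6 libraries, 33.8% were higher and 26.6% lower in the CFL1 knockout, and 43.3% higher and 20.0% lower in the METTL3 knockout. For the −log10 q the counts were 6 higher and 7 lower in the CFL1 knockout, against 35.3% and 31.5% of all shared sites, and 7 higher and 4 lower in the METTL3 knockout, against 42.8% and 27.8%. Each share over all shared sites lies within the exact interval of the writers' count, which runs from 24.4% to 71.1% for 9 of 19. The comparisons share the control libraries.

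The position of the summit, the base where a peak is highest, differed between control and knockouts at several shared sites. A summit was called apart where the smallest distance between a control and a knockout library was at least 100 bp and above the distances within both groups. This rule was set after the positions had been seen. It held at 5 of 19 sites for the CFL1 knockout and at 9 for the METTL3 knockout, against 32.4% and 33.4% of all shared sites. The exact intervals, 9.15% to 51.2% and 24.4% to 71.1%, include those shares. Among the 8 shared writer sites with a peak of at least 1000 bp, a width also chosen after the values had been seen, the counts were 4 (exact interval 15.7% to 84.3%) and 7 (47.3% to 99.7%), against 39.8% and 41.9% of all such sites. The interval for the METTL3 knockout does not include its share over all sites, but the width was chosen with these values in view. Its 7 sites include RBM15 site 3, where all summits lie past the end of the gene interval. They also include RBM15B site 1, which passed narrowly, with 611 bp from control against 594 bp within the METTL3 knockout. With only lines that overlap the intervals, the counts over shared sites were 6 for the CFL1 knockout and 8 for the METTL3 knockout. At RBM15 site 1 the summit lay 2850 bp from the 5′ edge of the site in both controls, and 1180 to 1181 bp from it in all 4 knockout libraries, a distance of at least 1669 bp. At WTAP site 4 it lay at 784 bp in both controls and at 182 to 257 bp in the knockouts. At METTL14 site 4 it lay at 684 and 685 bp in control and at 344 to 345 bp in the knockouts. In these 3 genes the summit of the knockouts was nearer to the 5′ end, as at ZC3H13 site 7, with 657 and 628 bp in control and 137 to 167 bp in the knockouts. At ZC3H13 site 7 the knockout peaks were 203 to 293 bp wide, against 648 and 933 bp in control. The peak of CFL1 knockout 5 began at 46575580, just before that of control 1 ended at 46575592. The −log10 q there was only 4.44 and 2.21 after CFL1 knockout. VIRMA site 5 had the summit nearer to the 3′ end, with 687 and 720 bp in control and 842 to 846 bp in the knockouts. RBM15B site 1 did so too, with 1506 and 1504 bp in control, 1925 and 2710 bp in CFL1 knockout 3 and 5, with 2711 and 2117 bp in METTL3 knockout 3 and 5. There the spread within the CFL1 knockout was larger than its distance from control, and that within the METTL3 knockout nearly as large. CFL1 knockout 3 and 5 and METTL3 knockout 3 called this site as 2 peaks, and only the summit of the peak with the higher −log10 q is given.

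At METTL14 site 4, WTAP site 4, VIRMA site 5, ZC3H13 site 7 and RBM15 site 1 the knockout libraries lay close to each other. The smallest distance between a CFL1 and a METTL3 knockout library was 0 bp at METTL14 site 4 and RBM15 site 1, 1 bp at VIRMA site 5 and ZC3H13 site 7, and 5 bp at WTAP site 4. Only at VIRMA site 8, at 95523249 to 95524043, did the knockouts stand apart from each other by the same rule, at 303 and 295 bp in CFL1 knockout 3 and 5, with 455 and 440 bp in METTL3 knockout 3 and 5, against 221 and 224 bp in control. Over all shared sites 9.16% stood apart in this way. The median distance over all shared sites was 12 bp between the controls, 21 bp between the CFL1 knockout libraries and 14 bp between the METTL3 knockout libraries. Between a control and a knockout library it was 113 to 128 bp, and between libraries of the 2 knockouts 31 to 37 bp. At the writers' 19 sites it was 7 bp between the controls and 35 to 137 bp between a control and a knockout library.

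**Figure D4:**
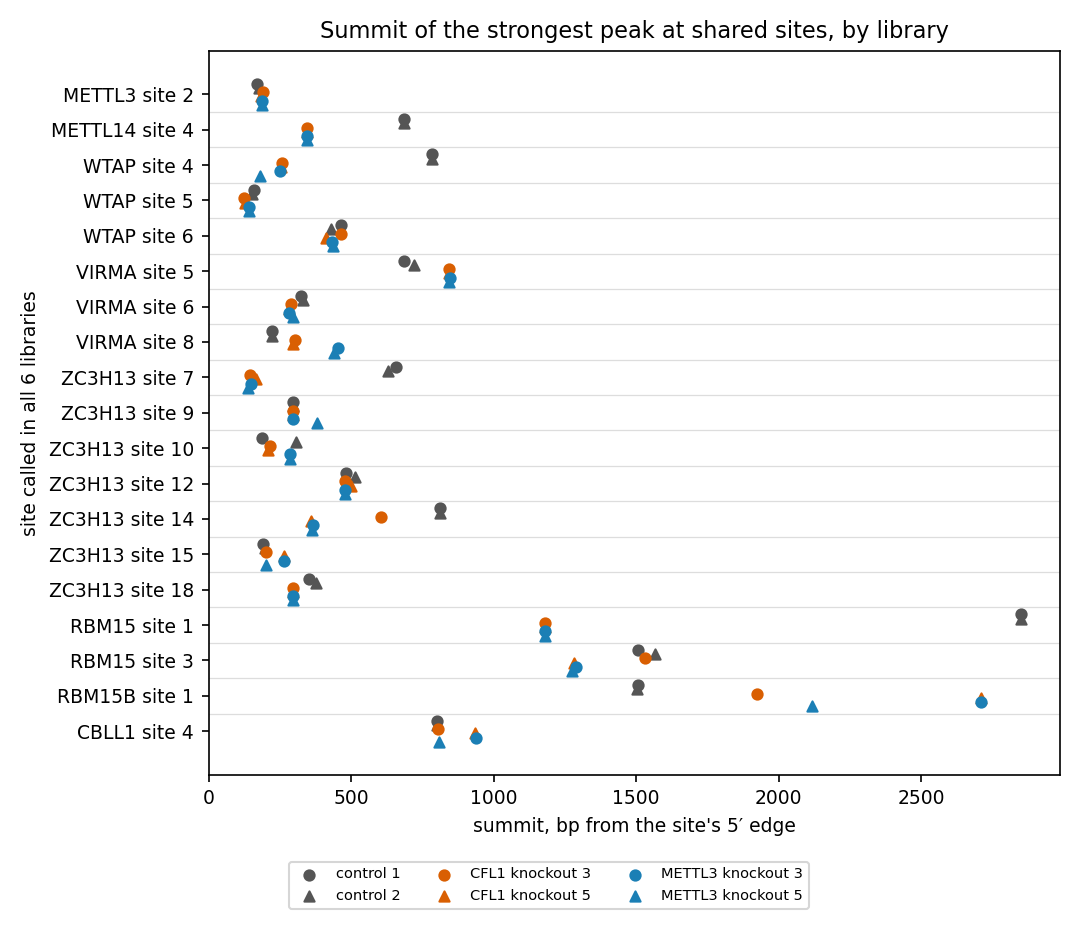
Distance of the summit from the 5′ edge of the site (horizontal axis, bp) in each library at the 19 shared writer sites (rows). At RBM15 site 1, WTAP site 4, METTL14 site 4 and ZC3H13 site 7 both controls lie to the right of all 4 knockout libraries, and at METTL3 site 2 and ZC3H13 site 12 all libraries lie close together.

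Pooled over the writer genes, sites called in both controls alone had a median position nearer to the 5′ end than shared sites. Measured at the middle of a site as a share of the interval, the 9 sites of both controls and no knockout had a median of 18% from the 5′ end, with a range of 3.82% to 67.0%. The 19 shared sites had a median of 73.1%, from 19.6% to beyond the end of the interval at RBM15 site 3. In WTAP and ZC3H13 all sites of both controls alone lay nearer to the 5′ end than every shared site. VIRMA sites 7 and 9 did not, at 53.9% and 65.1% against shared sites at 40.4%, 52.0% and 64.0%. RBM15 site 2, at 67.0%, lay between the shared sites of its gene. Positions were not worked out over all sites. The 9 sites also had a lower median of the highest −log10 q, 11.5 against 197, and a smaller median width, 304 bp against 900 bp. Exceptions were VIRMA sites 7 and 9 and RBM15 site 2, which reached 53.6, 78.2 and 29.1, and VIRMA site 2, which was 1029 bp wide. Strength and position thus differed together, and the part of position in whether a site was called in the knockouts was not tested. Over all sites, the median highest −log10 q was 9.56 for those of both controls and no knockout, and 100.7 for shared ones. The widest among the libraries' strongest peaks had medians of 346 and 983 bp there. Whether a site lies in an exon, an intron or an untranslated region was not analysed here.

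**Figure D5:**
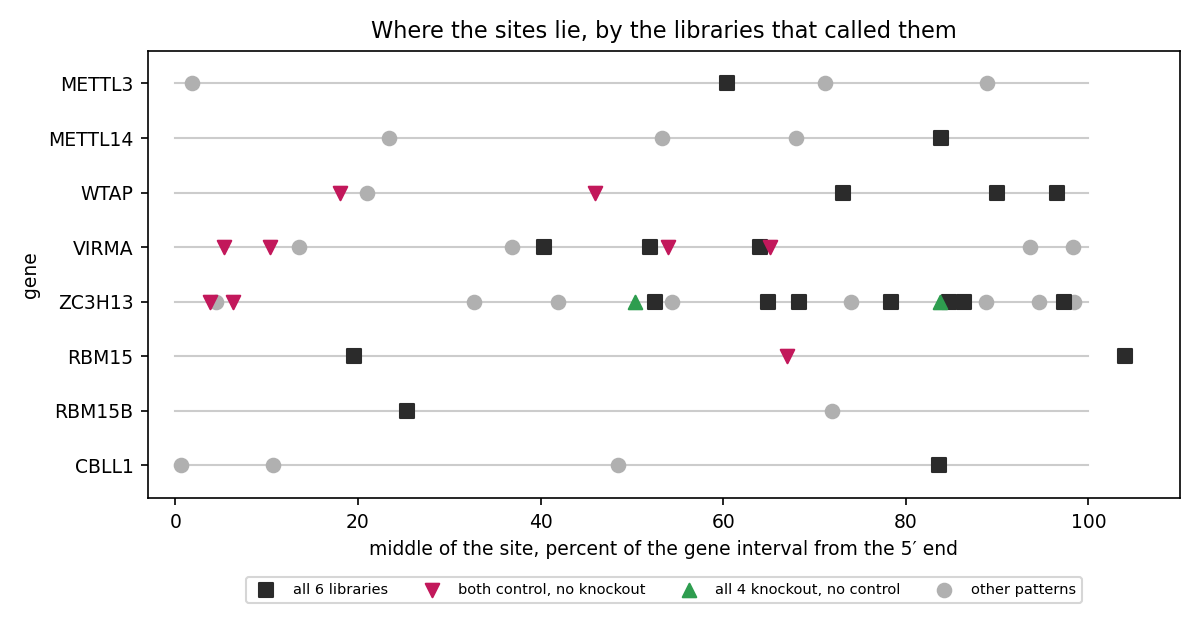
Middle of each of the 53 sites (horizontal axis, percent of the gene interval from the 5′ end) in each gene (rows), by the libraries that called it. Black squares, called in all 6 libraries, lie mostly to the right, and the 9 triangles pointing down, called in both controls alone, have a median of 18%.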

How the data were processed

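PANC-1 m6A-seq peaks of control, CFL1 knockout and METTL3 knockout cells were used. They stand behind 12 of the 32 labelled samples, 2 antibody samples and 2 inputs a group, and the 20 others were left out. Titles gave the groups. The submitters' processing notes name STAR, MACS2, bedtools and hg19, with no versions. The deposited values used were the interval, the summit, the fold enrichment, a ratio, and the −log10 q of each peak, and 2 value columns were not used. Peak names show that each list joins 2 libraries called separately. The numbers of the knockout libraries do not match the replicate numbers in the labels.

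Peaks of all 6 libraries that overlapped by at least 1 bp were joined into sites (pandas 2.3.3). No line repeated an interval within a library. At each site the peak of highest −log10 q represents a library. Site joining was tested on simulated sites that lay far apart with 1 peak a library, so the joining of neighbouring or split peaks was not tested. Shares have exact 95% binomial intervals (scipy 1.17.1). Strand came from RefSeq start entries, which matched 7 genes, and from general knowledge for VIRMA. The members, lists and rules were chosen with earlier results of these data known. The 8 genes are all named, and in each the sites named include the one of highest −log10 q and those called only in both controls or only in all 4 knockout libraries; other sites were picked after their values were seen. Alternatives were other joining, thresholds, assignment by summit, scaling and leaving out libraries.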

Additional observations from a re-analysis of the deposited data

Results flagged for a closer look

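At ZC3H13 site 14, on chromosome 13 at 46543029 to 46544235, the −log10 q of the 2 knockouts lay on opposite sides of control. It was 102 and 124 in control 1 and 2, 93.0 and 94.3 in CFL1 knockout 3 and 5, with 160 and 197 in METTL3 knockout 3 and 5. The METTL3 knockout minus the CFL1 knockout came to 84.7, from means of 178 and 93.7. The difference was not tested. Fold did not part the knockouts in this way, with 6.54 and 7.66 in control, 5.33 and 4.46 after CFL1 knockout, and 4.30 and 6.38 after METTL3 knockout. No other shared site of the writers had −log10 q or fold on opposite sides, and no gene had its peak numbers so.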

How the results depend on the processing

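No paired analysis was possible because replicate numbers of the labels do not appear in the knockout peak names. Peaks per library relative to control, 0.731 for CFL1 and 0.846 for METTL3, were 0.823 and 1.0 with a −log10 q minimum of 5, then 0.959 and 1.12 with 10. A fold minimum of 4 gave 0.902 and 1.10, and 0.827 and 1.03 came from counts scaled by the peaks of the library. The METTL3 knockout ratio thus turned direction under 3 of these settings. Without each library in turn, the CFL1 ratio ran from 0.713 to 0.750 and the METTL3 ratio from 0.821 to 0.872. Genes whose counts did not overlap, 4 for each knockout, numbered 2 for the CFL1 knockout with that −log10 q minimum of 5, 1 with the fold minimum, and 7 for the METTL3 knockout after scaling, 3 of them higher. Scaling also sets equal counts apart, as for CBLL1, with 2 unscaled peaks in every control and METTL3 knockout library. No share over all tiles was worked out under these settings, so the counts have no background beside them. METTL14, lower by 1.0 in the METTL3 knockout, was higher by 0.5 with the minimum of 10. With the fold minimum, 39.1% of CFL1 knockout sites and 37.5% of METTL3 knockout sites had no control peak, and 7 sites were called in all 6 libraries. The cause was not tested, and these values were not worked out over all sites. Another 4 alternatives for summits and fold at shared sites were chosen after the data were seen, and each count stayed within 1.5 times. The summit within a site and all lines as deposited change nothing by construction. Read depth is unknown, so an absent peak may lie just under the threshold of its library.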
